A study of Mus musculus with 6 samples.

Results

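A group of 7 transporter genes of the mouse medial prefrontal cortex (mPFC) was followed after morphine conditioning. They were chosen by name as carriers that load transmitter into vesicles, clear it from the synapse or set the chloride gradient: the vesicular glutamate transporters Slc17a7 (VGLUT1), Slc17a6 (VGLUT2) and Slc17a8 (VGLUT3), the neuronal glutamate and cysteine carrier Slc1a1 (EAAC1, also EAAT3), the GABA carrier Slc6a11 (GAT3), and the cation-chloride cotransporters Slc12a2 (NKCC1) and Slc12a5 (KCC2). These are 7 of the 31763 genes in the table, and all 7 were among the 18970 genes tested. The mPFC, part of the frontal cortex and engaged when drug memories are recalled, was taken from male C57BL/6J mice aged 8 to 10 weeks. Mice of the saline group received saline (10 ml/kg, i.p.) and those of the morphine group morphine (10 mg/kg, i.p.) during training for conditioned place preference (CPP), in which an animal learns to associate a chamber with a drug. Animals of both groups then stayed in the home cage without injections for several days, and tissue was collected after a retrieval test. RNA was sequenced in 3 saline and 3 morphine samples, from directional libraries depleted of ribosomal RNA. How many mice went into a sample is not stated, so p-values reflect the spread between samples, which may be technical.

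A vesicular glutamate transporter fills synaptic vesicles with glutamate, driven by the proton gradient that the vesicular ATPase builds, and its presence makes a neuron glutamatergic. VGLUT1 is the main form of cortical pyramidal neurons, VGLUT2 that of thalamic and many other subcortical neurons, and VGLUT3 is found in small sets of neurons that often release another transmitter as well. Uptake carriers in the plasma membrane use the sodium gradient to clear transmitter, EAAC1 mostly in neurons and GAT3 mostly in astrocytes. NKCC1 brings chloride into cells and KCC2 extrudes it from mature neurons, so the balance between them sets how GABA acts on a neuron.

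None of the 7 transporters passed the test between morphine and saline, and the 95% interval of each difference included 0. VGLUT1 and KCC2, the transporters at the highest level, were 7.11% and 9.57% higher in morphine, and their 95% intervals ran from -1.20% to 16.1% and from -1.23% to 21.5%. For GAT3 and VGLUT2 the difference was -23.6% and -11.5% over all libraries, yet 7.33% and 14.0% once saline sample 1 was left out. The remaining members, VGLUT3, EAAC1 and NKCC1, differed by 10.96%, 0.127% and -5.10%.

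The coding sequences of the 3 vesicular glutamate transporters are close relatives, and reads can be assigned to each gene only where they differ. Over aligned coding bases of the GENCODE M21 transcripts, Slc17a7 and Slc17a6 were 72.0% identical, Slc17a7 and Slc17a8 71.9%, and Slc17a6 and Slc17a8 71.6%. The longest run of identical bases shared by any transcripts of a pair was 21 bases for Slc17a7 and Slc17a6, 20 for Slc17a7 and Slc17a8, and 25 for Slc17a6 and Slc17a8, so any longer stretch differs in at least 1 base. The 90 bases around the run that Slc17a7 and Slc17a6 share are shown to make this visible. They lie in exon 2 of each gene on GRCm38, at chr7:45168847-45168936 (plus strand) in Slc17a7, chr7:51625413-51625502 (plus strand) in Slc17a6 and chr10:89606608-89606697 (minus strand) in Slc17a8. Capitals mark the shared run of 21 bases in Slc17a7, and in the others the bases that differ from Slc17a7, 12 in Slc17a6 and 20 in Slc17a8.
Slc17a7: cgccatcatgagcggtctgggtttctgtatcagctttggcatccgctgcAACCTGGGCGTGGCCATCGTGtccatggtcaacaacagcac
Slc17a6: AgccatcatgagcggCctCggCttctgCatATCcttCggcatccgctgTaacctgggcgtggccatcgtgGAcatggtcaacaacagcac
Slc17a8: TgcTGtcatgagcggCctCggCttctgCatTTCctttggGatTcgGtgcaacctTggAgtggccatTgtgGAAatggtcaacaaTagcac

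The promoters of 4 members are shown because these genes form the contrasting pairs of the data: Slc17a7 and Slc12a5, lowest in saline sample 1, and Slc17a6 and Slc6a11, far highest there. A promoter was found in RefSeq (GRCm38.p6) for 6 of the 7 members, and the 200 bases from 250 to 51 bases before the RefSeq start are given. All 4 lie on the plus strand, at chr7:45163671-45163870, chr2:164960596-164960795, chr7:51621580-51621779 and chr6:114130991-114131190 in the order printed. Capitals mark matches, on either strand, to the GC box GGGCGG, the cAMP response element TGACGTCA, the AP-1 site TGANTCA, the E-box CANNTG and the TATA box TATAAA, and no matches overlap. Among 32841 promoter windows of this length, 24.6% held the GC box, 0.828% the cAMP response element, 5.58% the AP-1 site, 59.1% the E-box and 9.14% the TATA box.
Slc17a7: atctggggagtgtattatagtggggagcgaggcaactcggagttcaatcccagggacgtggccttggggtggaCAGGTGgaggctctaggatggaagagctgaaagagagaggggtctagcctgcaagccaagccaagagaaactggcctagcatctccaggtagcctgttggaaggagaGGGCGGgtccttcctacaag
Slc12a5: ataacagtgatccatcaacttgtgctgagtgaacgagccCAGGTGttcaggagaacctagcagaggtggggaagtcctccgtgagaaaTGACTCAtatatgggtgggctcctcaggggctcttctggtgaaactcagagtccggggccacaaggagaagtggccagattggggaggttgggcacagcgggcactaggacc
Slc17a6: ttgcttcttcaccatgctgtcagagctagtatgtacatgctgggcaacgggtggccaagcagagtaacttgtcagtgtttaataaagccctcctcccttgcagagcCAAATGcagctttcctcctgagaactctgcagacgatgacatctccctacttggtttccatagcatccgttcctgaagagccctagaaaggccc
Slc6a11: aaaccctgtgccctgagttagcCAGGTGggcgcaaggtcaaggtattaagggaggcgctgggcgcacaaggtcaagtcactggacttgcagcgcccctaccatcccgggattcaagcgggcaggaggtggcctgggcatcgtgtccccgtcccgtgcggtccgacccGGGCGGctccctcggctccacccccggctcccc

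Each of these 4 windows held 1 E-box, a motif most promoters share. Slc17a7 and Slc6a11 also had a GC box, starting 70 and 83 bases before the start, and Slc12a5 alone had an AP-1 site, 162 bases before it. Neither the cAMP response element nor the TATA box was matched in any of the 4 windows. The bases nearest the start lie outside these windows, so a TATA box or other motif there was not looked for. A match is a description of the letters and no evidence of binding.

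Counted reads came to between 17984153 and 23529592 per library. Levels within a gene are given as normalized CPM, counts scaled to the library size after TMM normalization, and levels of different genes are compared in FPKM, which also divides by gene length. Differences are log2 fold changes of morphine over saline from the two-sided quasi-likelihood test of edgeR, with p-values adjusted over all genes tested. Markers of the labelled tissue were present. Camk2a, a kinase of excitatory neurons, averaged 2596 ± 344 CPM over saline and 2807 ± 179 CPM over morphine libraries (SD, n = 3), and all 6 cortical pyramidal neuron markers were tested.

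Saline sample 1 stood apart. In it, 6 of 7 tested markers of the olfactory bulb, the neighbour of the mPFC at the front of the brain, exceeded 2 times the highest other library, and their sum was 515 CPM against 126 to 156 CPM elsewhere. Cdhr1, a cadherin of mitral and tufted cells, was 29.0 times the highest other library, and Th, the enzyme of dopamine synthesis, 18.1 times. Of the other 3 bulb markers, too low to be tested, Eomes reached 462 counts there. The 8 interneuron markers went both ways there. Gad1, Gad2, Slc32a1 and Adarb2 were at their highest, from 1.32 to 2.07 times the highest other library, while Pvalb, Lhx6 and Vip, which mark cortical interneuron classes, were at their lowest, at 0.481, 0.559 and 0.736 times it, and Sst lay within the range of the others. The 6 pyramidal neuron markers were all lowest in saline sample 1 and summed to 2837 CPM against 3420 to 3837 CPM. The 7 deep layer markers summed to 366 CPM there against 246 to 302 CPM, but they did not move alike. Syt6, Bcl11b and Foxp2 were highest there, at 2.46, 1.28 and 1.09 times the highest other library. Fezf2 was lowest there, at 0.733 times it, and the remaining deep layer markers lay within the range of the other libraries. Each transporter is therefore given with and without this library. In bulk tissue, fewer cells of a type and less RNA per cell cannot be told apart.

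Per length, VGLUT1 was the most abundant member, at 229, 233 and 241 FPKM in saline and 249, 246 and 248 FPKM in morphine, the rank of 40 among all genes tested. KCC2 followed, between 86.3 and 104 FPKM. GAT3 ranged from 19.9 to 44.7 FPKM, EAAC1 from 21.8 to 25.3 FPKM and NKCC1 from 13.6 to 17.3 FPKM. VGLUT2 lay between 1.71 and 3.68 FPKM, and VGLUT3, the lowest, between 0.597 and 0.813 FPKM. GAT3 and EAAC1 were the only neighbours in this order whose libraries overlapped, and without saline sample 1 GAT3 (at most 21.5 FPKM) lay below EAAC1.

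**Figure D1:**
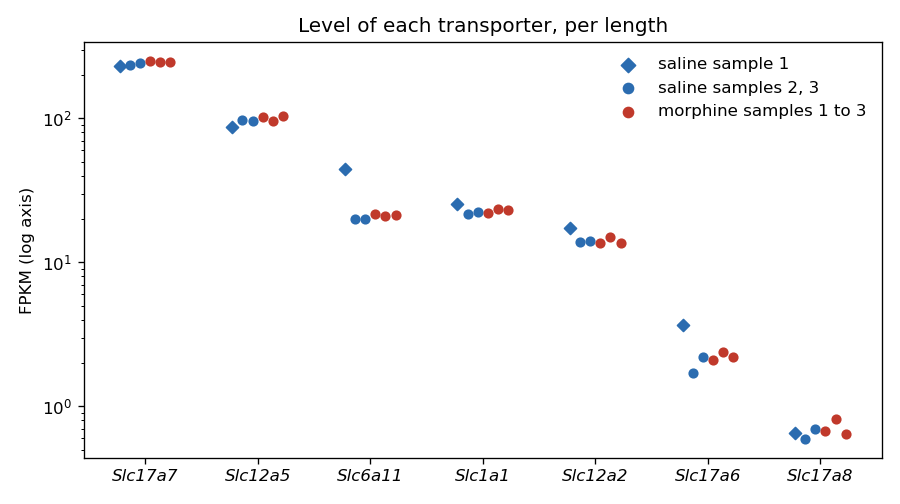
FPKM of each transporter (log axis), ordered by its mean, in each saline (blue) and morphine (red) library, with saline sample 1 as a diamond. The levels run from VGLUT1 at 229 to 249 FPKM down to VGLUT3 at 0.597 to 0.813 FPKM, and only GAT3 and EAAC1 overlap.

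VGLUT1 (Slc17a7, chr7:45163949-45176142, plus strand, 13 exons) stood at 1215, 1260.1 and 1296 CPM in saline samples 1 to 3 and at 1359.5, 1319 and 1361 CPM in morphine samples 1 to 3. All 3 morphine libraries lay above all 3 saline libraries, by a margin small beside the level. Saline averaged 1257 ± 40.7 CPM and morphine 1346 ± 24.2 CPM (SD, n = 3). This came to 0.099 on the log2 scale (standard error 0.052, edgeR adjusted p 0.673). With saline sample 1 left out it was 0.077 (standard error 0.052, edgeR adjusted p 0.605), and the groups still did not overlap. A miRNA gene, Mir7055, is annotated inside Slc17a7 on the same strand.

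VGLUT2 (Slc17a6, chr7:51622006-51671119, plus strand, 12 exons) stood at 19.5, 9.29 and 11.95 CPM in saline and at 11.4, 12.7 and 12.1 CPM in morphine. Saline sample 1 was 1.54 times the highest other library, while saline sample 2 was the lowest of all, so the morphine libraries lay inside the saline range. Saline averaged 13.6 ± 5.32 CPM and morphine 12.1 ± 0.621 CPM (SD, n = 3), giving a log2 fold change of -0.18 (standard error 0.22, edgeR adjusted p 0.846). Leaving out saline sample 1 gave 0.19 (standard error 0.13, edgeR adjusted p 0.609), with a 95% interval from -0.08 to 0.46. These values rest on 197 to 453 counts per library. Gm45072, an unproven transcript, is annotated over Slc17a6 on the same strand, so its reads may have entered these counts.

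VGLUT3 (Slc17a8, chr10:89574020-89621253, minus strand, 12 exons) stood at 3.02, 2.83 and 3.27 CPM in saline and at 3.21, 3.81 and 3.12 CPM in morphine. The groups overlapped, and morphine sample 2 was highest. Each library held only 58 to 72 counts. Counting error alone gives 95% Poisson intervals of 44.0 to 75.0 for 58 counts and of 56.3 to 90.7 for 72, so each of these raw counts lay in the interval of the other. These intervals leave out library size, and in CPM saline sample 2 (2.83) and morphine sample 2 (3.81) lay furthest apart. The log2 fold change was 0.15 (standard error 0.18, edgeR adjusted p 0.835), with a 95% interval from -15.8% to 46.2%, and 0.15 (standard error 0.22) without saline sample 1.

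**Figure D2:**
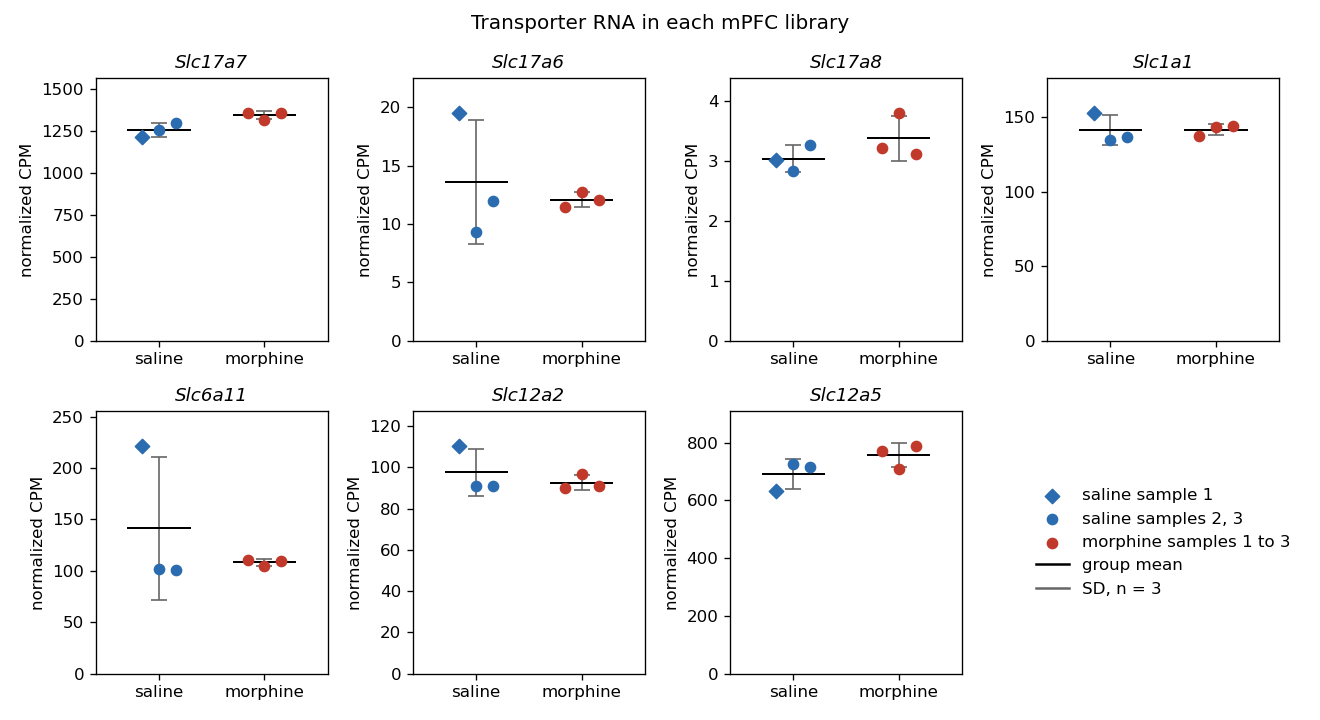
Normalized CPM of each transporter in each saline (blue) and morphine (red) library, with the group mean (bar) and SD (n = 3) and saline sample 1 as a diamond. The groups separate for VGLUT1 alone, and GAT3 and VGLUT2 in saline sample 1 stand at 2.01 and 1.54 times the highest other library.

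As shares of the summed FPKM of the 3 forms, VGLUT1 made up 98.1%, 99.0% and 98.8% in saline and 98.9%, 98.7% and 98.9% in morphine. VGLUT2 accounted for 1.58%, 0.729% and 0.910% in saline and for 0.832%, 0.949% and 0.876% in morphine. VGLUT3 stayed between 0.254% and 0.326%. The shares of the groups overlapped for every form, and VGLUT1 over VGLUT2 was 62.3 in saline sample 1 against 104 to 136 elsewhere. As summed ratios of chosen members these shares were not tested.

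EAAC1 (Slc1a1, chr19:28835049-28913960, plus strand, 12 exons) stood at 153, 135 and 137 CPM in saline and at 138, 144 and 144 CPM in morphine. Saline sample 1 was the highest library and the other saline libraries the lowest. Both groups averaged 142 CPM, with an SD of 10.1 in saline and 3.54 in morphine (n = 3). Their log2 fold change was 0.0018 (standard error 0.059, edgeR adjusted p 0.995), with a 95% interval from -0.13 to 0.13. In the absence of saline sample 1 the morphine libraries lay above the saline ones, the log2 fold change being 0.064 (standard error 0.052, edgeR adjusted p 0.681). Gm5822, a processed pseudogene, and the coding gene 4430402I18Rik overlap Slc1a1 on the opposite strand, and the sources used here do not give the strand setting of the counting, so reads of these genes may have entered each other's counts.

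GAT3 (Slc6a11, chr6:114131241-114249952, plus strand, 14 exons) stood at 222, 101 and 100.4 CPM in saline and at 110.2, 105 and 109 CPM in morphine. Saline sample 1, with 5144 counts, was 2.01 times the highest other library. Over all genes tested, 159 (0.838%) exceeded 2 times the highest other library there. The saline mean was 141 ± 69.9 CPM and the morphine mean 108 ± 3.07 CPM (SD, n = 3), giving a log2 fold change of -0.39 (standard error 0.25, edgeR adjusted p 0.707). Among the other 5 libraries all 3 morphine libraries lay above the saline ones, the log2 fold change being 0.10 (standard error 0.053, edgeR adjusted p 0.477). The 95% interval then ran from -0.611% to 15.9%. Gm8132, a processed pseudogene, overlaps Slc6a11 on the opposite strand, and with the strand setting unknown its reads may have entered these counts too. With no filter on low counts edgeR gave -0.39 over all libraries (standard error 0.10) with an adjusted p of 0.0466. That fit called 279 of 31763 genes, where the main fit called 0. DESeq2 gave -0.38 with an adjusted p of 0.991.

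GAT3 is mainly an astrocyte gene, yet the astrocyte markers did not stand out alike in saline sample 1: their sum was 960 CPM there and 863 to 965 CPM elsewhere, with Gfap at 1.96 and Aqp4 at 1.39 times the highest other library. The gene nearest to GAT3 in pattern was Gad1, the main enzyme of GABA synthesis, at 560 CPM in saline sample 1, at 253 and 235 CPM in the other saline samples and at 260.1, 257 and 270.2 CPM in morphine. Bulb markers and the GABA synthesis genes Gad1 and Gad2 were thus high in the library where GAT3 and VGLUT2 were high, while the interneuron markers Pvalb, Lhx6 and Vip were low there, and their part in the result was not tested.

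NKCC1 (Slc12a2, chr18:57878678-57946821, plus strand, 27 exons) stood at 111, 91.1 and 90.9 CPM in saline and at 89.9, 96.9 and 91.0 CPM in morphine. Saline sample 1 was the highest, at 1.14 times the next library, morphine sample 2. Saline averaged 97.5 ± 11.3 CPM and morphine 92.6 ± 3.77 CPM (SD, n = 3), giving a log2 fold change of -0.076 (standard error 0.078, edgeR adjusted p 0.808). Leaving out saline sample 1 gave 0.026 (standard error 0.056, edgeR adjusted p 0.90). Oligodendrocyte markers, a cell type that also carries NKCC1, summed to 1584 CPM in saline sample 1 and 1672 CPM in morphine sample 2, the highest 2 libraries, against 1196 to 1417 CPM in the others, and their part in the result was not tested.

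KCC2 (Slc12a5, chr2:164960802-164999731, plus strand, 26 exons) stood at 632, 725 and 715 CPM in saline and at 771, 710.0 and 789.5 CPM in morphine. Morphine samples 1 and 3 were above every saline library, but morphine sample 2 lay below saline samples 2 and 3. Saline averaged 691 ± 51.5 CPM and morphine 757 ± 41.6 CPM (SD, n = 3), giving a log2 fold change of 0.13 (standard error 0.067, edgeR adjusted p 0.671). With the lowest library, saline sample 1, left out it was 0.073 (standard error 0.054, edgeR adjusted p 0.647).

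The ratio of KCC2 to NKCC1 in FPKM sets RNA of a carrier that extrudes chloride against RNA of one that brings it in. It is taken in bulk tissue, where oligodendrocytes also carry NKCC1, so it does not measure the chloride balance of neurons. The ratio was 5.004, 6.97 and 6.89 in saline and 7.51, 6.42 and 7.59 in morphine. Its mean was 6.29 ± 1.11 in saline and 7.17 ± 0.658 in morphine (SD, n = 3), a difference of 14.1%, and 3.50% without saline sample 1. The groups overlapped, and the ratio of chosen members was not tested.

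The summed pyramidal neuron markers ordered the 6 libraries as KCC2 did, from saline sample 1 and morphine sample 2 at 2837 and 3420 CPM to morphine samples 1 and 3 at 3835 and 3837 CPM. All 6 of these markers were higher in morphine, with a median log2 fold change of 0.22, and of 0.10 without saline sample 1. The transcription factors Neurod2 and Neurod6 had the lowest p among them, at log2 fold changes of 0.21 and 0.24 (edgeR adjusted p 0.594 and 0.574). VGLUT1 did not share the whole order, since in morphine sample 2 it lay above every saline library while the marker sum lay below saline samples 2 and 3. The sum of the upper layer markers also ordered the 6 libraries as KCC2 did, at 647 CPM in saline sample 1 against 752 to 873 CPM elsewhere. All 5 of them were higher in morphine, where 47.5% of all genes were, and 3 of 5 without saline sample 1. In contrast, the sum of the deep layer markers was highest in saline sample 1, where VGLUT1 and KCC2 were lowest. Fezf2 of the deep layer list was lowest there too. The part of these markers in the result was not tested.

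**Figure D3:**
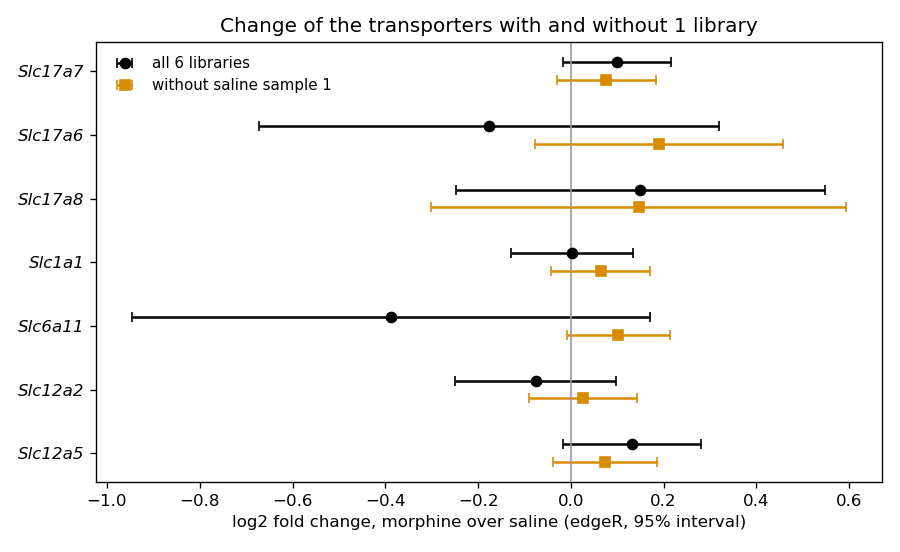
Log2 fold change of each transporter, morphine over saline, with its 95% interval from edgeR, over all 6 libraries (black) and without saline sample 1 (orange). All 14 intervals include 0, and the estimates of GAT3 and VGLUT2 move from -0.39 and -0.18 to 0.10 and 0.19.

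Over all libraries 4 members were higher and 3 lower in morphine, with a median log2 fold change of 0.00 against -0.01 over all genes tested. At an adjusted p under 0.05 edgeR called 0 of 7 members, as it did 0 of all 18970 genes (0%), and DESeq2 called 0 members and 16 of all genes. At an unadjusted p under 0.05 edgeR called 0 members, where it called 7.72% of all genes, 2.77% higher and 4.96% lower. DESeq2 also called 0 members at an unadjusted p under 0.05, where it called 974 of the 18970 genes. The groups did not overlap for 1 member, VGLUT1 on the higher side, and for 0 on the lower side, against 5.98% and 7.32% of all genes.
Without saline sample 1 all 7 members were higher in morphine, with a median log2 fold change of 0.08 against 0.00 over all genes. None of them was called at an adjusted p (0.996% of all genes were) or at an unadjusted p (11.7%) in edgeR. The groups did not overlap for 3 members, VGLUT1, EAAC1 and GAT3, all higher in morphine, where 12.7% of all genes were higher and 14.8% lower without overlap. Saline sample 1 was the highest library for 4 members, as for 24.9% of all genes, and over 1.5 times the highest other library for 2, as for 2.40% of all genes.

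The genes nearest in pattern were taken among 13341 other genes, each with 50 counts or more per library, by the root mean square difference of log2 CPM from the gene's own mean over the 6 libraries. Those nearest VGLUT1 were Tmem179, Ap3m2, a subunit of the vesicle adaptor AP-3, and Vti1b, a SNARE of endosomal fusion, at 0.0106, 0.0109 and 0.0121. Near KCC2 were Frrs1l, an assembly factor of AMPA receptors, and the tetraspanin Tspan5, at 0.0140 and 0.0166. GAT3 was nearest to Gad1, the transcription factor Meis2 and Peli2 at 0.0395, 0.0491 and 0.0589, and VGLUT2 to Hap1, Adamtsl1 and Cited2 at 0.0630, 0.0655 and 0.0671. EAAC1 was nearest to Serpini1, Arrdc3 and Lamtor5 (0.0132, 0.0177 and 0.0191), NKCC1 to Rif1, Cldn12 and Dhx32 (0.0241, 0.0255 and 0.0261), and VGLUT3 to Slc25a30, Glrx5 and Gm48408 (0.0262, 0.0349 and 0.0353). Hap1, nearest to VGLUT2, was at 117 CPM in saline sample 1 and between 57.8 and 70.4 CPM elsewhere, so it shared the high library and the low saline sample 2. With 6 libraries from the same tissue these distances are a description.

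**Figure D4:**
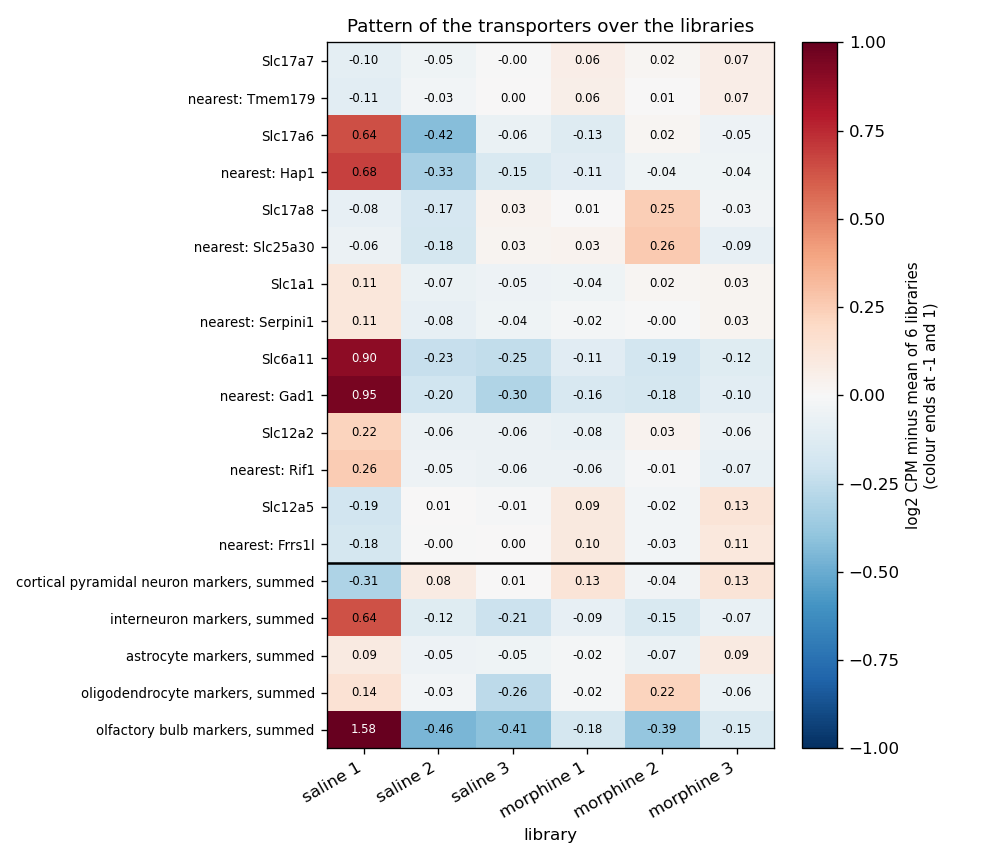
Log2 CPM of each transporter, of its nearest gene and of summed marker lists in each library, as the difference from the mean of the 6 libraries (red higher, blue lower, value in each cell). GAT3 at 0.90 and VGLUT2 at 0.64 are high in saline sample 1, as are the olfactory bulb markers (1.58) and the interneuron sum (0.64, carried by Gad1 and Gad2 while Pvalb, Lhx6 and Vip were lowest there), and KCC2 (-0.19) and the pyramidal neuron markers (-0.31) are low.

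The proton pump that powers vesicle filling was measured through 18 genes, subunits of the vesicular ATPase and their partners. Of these 17 were higher and 1 lower in morphine, with a median log2 fold change of 0.07, where 47.5% of all genes were higher. The groups did not overlap for 8, all higher, a state that 5.98% of all genes shared. Atp6v1g2, a subunit of the brain form of the pump, stood at 139, 137 and 139 CPM in saline and at 166, 147 and 152 CPM in morphine, a log2 fold change of 0.16 (standard error 0.06, edgeR adjusted p 0.616). Atp6v1e1, a stalk subunit, stood at 183, 182 and 183 CPM in saline and at 205, 191 and 205 CPM in morphine, a log2 fold change of 0.14 (standard error 0.05, edgeR adjusted p 0.616). These were the 2 genes at an unadjusted p under 0.05 (7.72% of all genes were, in either direction), and 0 passed the adjusted threshold. Without saline sample 1 again 17 were higher, where 51.4% of all genes were, with a median of 0.10. At an unadjusted p under 0.05 edgeR then called 6 of the 18, against 11.7% of all genes in either direction, and at an adjusted p 0. Of the other vesicular transporters, only 3 of 7 were tested and 0 reached an unadjusted p under 0.05 in edgeR. Among them Slc32a1, which loads GABA and glycine, was at -0.13 over all libraries and at 0.09 without saline sample 1.

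Other carriers of the plasma membrane showed 0 genes at an unadjusted p under 0.05 in edgeR, among 6 tested glutamate and amino acid exchangers (median log2 fold change -0.01) and 9 tested SLC6 carriers (median 0.03). With saline sample 1 left out the medians were 0.039, with 5 of 6 exchangers higher, and 0.059, with 6 of 8 SLC6 carriers higher. Slc1a2 (GLT-1), the main glutamate carrier of astrocytes, averaged 5721 ± 403 CPM over saline and 6117 ± 272 CPM over morphine libraries (SD, n = 3), with a log2 fold change of 0.097, or 0.043 with saline sample 1 left out. The taurine carrier Slc6a6 had the lowest p of its list, at a log2 fold change of -0.11 (edgeR adjusted p 0.645). All 3 morphine libraries lay below the saline ones, a state that 7.32% of all genes shared. The 12 genes of glutamate and GABA metabolism and glutamine transport counted 2 higher and 10 lower in morphine (median -0.07), but 9 higher and 3 lower without saline sample 1 (median 0.04). Over all libraries 0 of them were at an unadjusted p under 0.05 in edgeR. Without that library 1 was higher (Slc38a3, a glutamine carrier, at 0.20) and 1 lower (Gls2, a glutaminase, at -0.24) at this threshold, which 11.7% of all genes then passed in either direction. Gad1 went from a log2 fold change of -0.42 to 0.11 when that library was left out, as GAT3 did from -0.39 to 0.10.

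All 6 of the tested other cation-chloride cotransporters were lower in morphine, where 47.5% of all genes were higher. Their median log2 fold change was -0.24, and -0.10 without saline sample 1. Slc12a8, a low-level member of the family, was at 2.93, 1.89 and 1.48 CPM in saline and at 1.11, 1.32 and 1.43 CPM in morphine, a log2 fold change of -0.71 (standard error 0.29, edgeR adjusted p 0.620). It was the 1 gene of the list at an unadjusted p under 0.05 in edgeR (7.72% of all genes were, in either direction). Its groups did not overlap, lower in morphine as for 7.32% of all genes, and it rests on 20 to 68 counts per library. None of the list was under that p once saline sample 1 was left out, when Slc12a8 stood at -0.38. The kinases and partners of these carriers counted 6 higher and 3 lower of 9 (median 0.02), and the sodium-potassium pump 7 higher and 2 lower of 9 (median 0.02), with 0 at an unadjusted p under 0.05 in edgeR in either list over all libraries. The groups did not overlap for 1 gene of each list, the kinase gene Wnk1 (-0.083) and the pump gene Atp1b3 (-0.13). Both were lower in morphine, a state that 7.32% of all genes shared. With saline sample 1 left out the medians were 0.011 and 0.072. Atp1b2 and Fxyd6 of the sodium-potassium pump were then at an unadjusted p under 0.05 in edgeR, with log2 fold changes of 0.14 and 0.15, against 0 of the kinases and partners. Of all genes 11.7% passed this threshold without that library, in either direction. No gene of these 8 lists passed the adjusted threshold in edgeR.

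**Figure D5:**
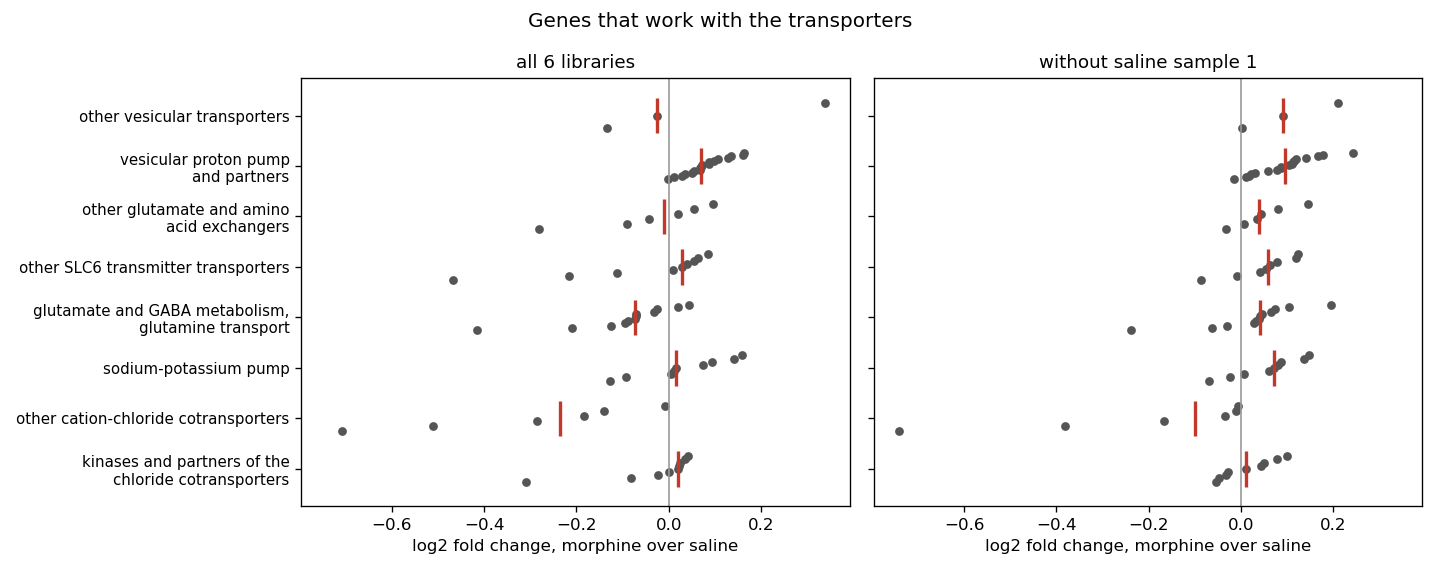
Log2 fold change, morphine over saline, of each tested gene (dot) and the median (red bar) of 8 lists of carriers and pumps, over all 6 libraries and without saline sample 1. The proton pump genes lie at a median of 0.07 and 0.10, and the other chloride cotransporters at -0.24 and -0.10.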

How the data were processed

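RNA of 3 saline and 3 morphine mPFC samples was analysed, and groups and replicate numbers came from the sample labels. The authors deposited, for every gene in each library, a raw count and an FPKM. Checked over 13342 genes, the deposited FPKM were these counts divided by a gene length and a library factor. Among the tools in the submitters' processing notes are HISAT2 2.1.0 and HTSeq 0.11.2, with the build mm10. The sources used here do not give whether the counting used strand.

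A gene was kept if 3 or more libraries held 10 counts or more, TMM factors were computed, and the kept genes were tested with edgeR 4.0.16 in R 4.3.3, with Benjamini-Hochberg adjustment. The script was tested on simulated data. Alternatives were DESeq2 1.42.0, other filters, limma 3.58.1 on log2(FPKM + 0.1) and log2(FPKM + 1), the replicate number as a block and each library left out. Poisson intervals (95%) cover counting error only. No pair of replicates agreed within sampling noise, at a chi-square of 2.91 to 14.7 times its degrees of freedom.

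The members, lists and tests were chosen with earlier results of these data known. Named genes were the members, the 3 genes nearest in pattern to each, genes of each partner list at an unadjusted p under 0.05 with up to 3 others of lowest p, and leading markers. Slc32a1, Slc1a2, Gad1, Gfap, Aqp4, Neurod2, Neurod6, Adarb2, Pvalb, Lhx6, Vip, Sst, Slc38a3, Gls2, Atp1b2, Fxyd6, Fezf2, Foxp2 and Eomes were also named, after their values had been seen. Some genes that the rule or a list holds are not reported here.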

Additional observations from a re-analysis of the deposited data

How the results depend on the processing

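Over 14 alternatives, 87 of 98 values of the 7 transporters kept their direction and their side of the adjusted threshold. Without saline sample 1 the log2 fold change turned to 0.19 for VGLUT2 (Slc17a6), 0.10 for GAT3 (Slc6a11) and 0.026 for NKCC1 (Slc12a2). EAAC1 (Slc1a1), near 0 throughout, turned to -0.0148 on log2(FPKM + 0.1), with and without a filter, and to -0.0143 on log2(FPKM + 1), and with each library left out in turn it ranged from -0.032 to 0.064. The corresponding ranges were 0.077 to 0.13 for VGLUT1 (Slc17a7), -0.58 to 0.10 for GAT3, -0.39 to 0.19 for VGLUT2, 0.057 to 0.21 for VGLUT3 (Slc17a8), -0.12 to 0.026 for NKCC1 and 0.073 to 0.18 for KCC2 (Slc12a5). GAT3 passed the threshold with no filter on low counts (-0.39, edgeR adjusted p = 0.0466), and the cause was not tested. Genes called over the whole table came to 0 in edgeR, 16 in DESeq2, 279 with no filter, 4 with limma on log2(FPKM + 0.1), and 0 to 186 with each library left out, the 186 without saline sample 1.

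Samples of equal replicate number showed no shared deviations: over 18970 genes these correlated at 0.02, 0.00 and -0.02. With 3 libraries a group and saline sample 1 standing apart, this cannot settle whether such samples were handled together. With the replicate number as a block 0 genes were called, and the members' edgeR adjusted p ran from 0.739 to 0.989. With 3 libraries a group, VGLUT3 at 58 to 72 counts was the member most limited by depth.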
